A study of Homo sapiens with 5 samples.

Results

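Cytosolic ribosomal proteins build the large and small subunits of the ribosome together with ribosomal RNA, and 46 of the genes that encode them are described here. The 46 genes were taken from a list of Ensembl identifiers drawn up for the RPL, RPS, RPLP and FAU families, and all 46 were present among the 20001 identified genes of the deposited table. The list leaves out ribosomal protein genes that lie in long runs of table rows shifted as a block between the cell lines, so the comparison of lines was used in part to choose it. Neither the table nor the reference used here pairs identifiers with gene names (0 Ensembl identifiers in the RefSeq gene table). The members are therefore given by identifier, the family label could not be checked gene by gene, and roles of single members are not stated.

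The measurement was PRO-seq, in which engaged RNA polymerases add biotinylated nucleotides to the RNA they are making, so reads count transcription under way and not stored RNA. All 5 libraries came from HEK293T, a human embryonic kidney line with SV40 large T antigen, grown without any treatment named in the labels. Each line was monoclonal and carried a landing pad, a genomic site that receives inserted DNA, with the genotype PGK landing pad in 2 libraries and CAG landing pad in 3. PGK is the promoter of a glycolysis gene and CAG a strong composite promoter. With monoclonal lines, an effect of the promoter cannot be told apart from a difference between clones. No label says whether the replicates of a line were grown separately, so p-values rest on a spread that may be technical. The genes that would check the labelled line need gene names and were not looked up. Library totals ran from 3712105 counts in PGK replicate 2 to 5864157 in CAG replicate 3.

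Ribosomal protein genes are among the most actively transcribed housekeeping genes, and their products are needed in nearly equal numbers to assemble complete subunits. Their messenger RNAs begin with a terminal oligopyrimidine tract (5′ TOP), a run of C and T bases at the very start, through which LARP1 and the mTOR pathway control their translation. Introns of many of these genes hold small nucleolar RNAs, which guide chemical modification of ribosomal RNA.

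The start of the transcript is shown because a PRO-seq count arises from polymerases that set out from it. The windows below hold 10 bases before and 20 bases from the RefSeq start (assembly GRCh38.p14), with capitals for the longest pyrimidine tract of at least 5 bases that opens with C within 5 bases of the start. The genes shown were fixed by role: the ribosomal stalk (RPLP0, RPLP2), fusions to ubiquitin or a ubiquitin-like protein (RPS27A, FAU), a partner of 5S ribosomal RNA (RPL11) and the substrate of S6 kinase (RPS6). They are named by symbol and are tied to no value of the deposited table.
RPLP0, chr12:120201092-120201121, minus strand: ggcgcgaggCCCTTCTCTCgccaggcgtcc
RPLP2, chr11:809957-809986, plus strand: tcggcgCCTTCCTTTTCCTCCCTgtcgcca
RPS27A, chr2:55231893-55231922, plus strand: agtgacacacaagacccagactcttcccta
FAU, chr11:65122115-65122144, minus strand: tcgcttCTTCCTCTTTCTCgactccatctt
RPL11, chr1:23691769-23691798, plus strand: cctggcccataaggCCCTCggccggaagct
RPS6, chr9:19380217-19380246, minus strand: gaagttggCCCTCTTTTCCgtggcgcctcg

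A tract was found in 5 of these 6 windows, with 10 bases in RPLP0, 17 in RPLP2, 13 in FAU, 5 in RPL11 and 11 in RPS6, and none by this rule in RPS27A. Of 79 ribosomal protein symbols, 63 matched a RefSeq promoter, and 51 of the 63 (81.0%, exact binomial 95% interval 69.1% to 89.8%, counting error only) held such a tract. Among 15843 protein-coding promoters, the ribosomal ones included, the share was 22.1%. At the first transcribed base, C stood in 74.6% of the ribosomal protein genes and in 11.3% of all.

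**Figure D1:**
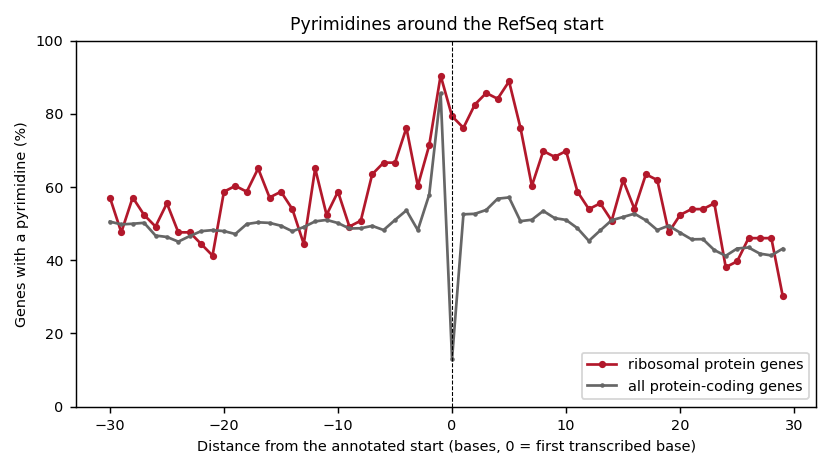
Share of genes with a pyrimidine (C or T, in %) at each base around the RefSeq start, for 63 ribosomal protein genes (red) and 15843 protein-coding genes (grey). At the sixth transcribed base the red line stands at 88.9% and the grey line at 57.2%, and the gap is wider at the first base, where the red line stands at 79.4%.

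Other short motifs were searched on both strands of the 300-base promoters, where GGGCGG and GC-rich stretches can overlap the longer motifs. CCGGAAG, the core of ETS family sites, was in 33.3% of the ribosomal protein promoters and 14.2% of all. ATGGCGG, the core of YY1 sites, was in 19.0% and 7.63%. TCTCGCGAG was in 9.52% and 1.05%. In the 60 bases around the start the shares were closer for CCGGAAG, at 7.94% and 6.31%, and stood at 11.1% and 2.95% for ATGGCGG. For TCTCGCGAG they were 1.59%, which is 1 promoter of 63, and 0.316%. In contrast, the GC box GGGCGG was in 55.6% against 58.5% and TATAAA in 7.94% against 9.63%. CACGTG was in 4.76% against 8.88% and GCGCATGCG in 1.59% against 2.76%. These matches describe letters in a window and not binding.

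The annotation also limits what a count per gene can mean. By RefSeq coordinates, 29 of the 79 ribosomal protein genes (36.7%) enclose at least 1 small nucleolar RNA gene, against 2.62% of 20056 protein-coding genes, and 4 is the most in 1 gene. The gene table also lists 1979 pseudogenes named after the 79 genes, with a median of 16 for each and 137 for RPL21. How the authors' counting treated reads shared with nested genes or with near-identical copies is not given in the sources used here. Single values below are uncertain to that extent, and the part of nested or copied genes in them was not tested.

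PGK replicate 2 stood apart from the other libraries in a fraction of the members. Levels are CPM, counts normalised to a library size that edgeR's TMM method had scaled. They are not divided by gene length, so no order of levels between genes is read. In 11 of the 46 members the level in PGK replicate 2 was at least 1.5 times that in PGK replicate 1, and in 7 it was at least 2 times. All 41 members with a mean of at least 50 CPM were set against the 6466 genes that reach this level, of which 0.742% passed 1.5-fold and 0.371% passed 2-fold. The 11 members all lie among these 41 (26.8%). These are descriptions of 2 libraries with no test, and the 1.5-fold limit was chosen after the values were seen.

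The difference was largest in ENSG00000110700, which stood at 134 CPM in PGK replicate 1 and 447 CPM in PGK replicate 2, and at 132, 134 and 114 CPM in CAG replicates 1, 2 and 3. ENSG00000142937 had 278 and 882 CPM in the PGK libraries and 318, 345 and 242 CPM in the CAG libraries. ENSG00000112306 had 202 and 639 CPM against 174, 188 and 174 CPM. In these 3 genes PGK replicate 2 was 2.98 to 3.48 times the mean of the other 4 libraries, while PGK replicate 1 lay within the CAG range or close to it.

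A rise in PGK replicate 2 was also seen in 4 more members with at least 2-fold differences between the PGK libraries. ENSG00000167526 had 238 and 687 CPM in PGK replicates 1 and 2 and 274, 292 and 240 CPM in the CAG replicates. ENSG00000140988 had 294 and 805 CPM in the PGK line and 299, 322 and 240 CPM in the CAG line. ENSG00000148303 had 279 and 734 CPM against 265, 301 and 232 CPM. PGK replicate 2 was the highest library in each, and the other 4 libraries differed by far less than it did from them. ENSG00000100316 had 561 and 1377 CPM in the PGK line and 475, 536 and 435 CPM in the CAG line. In this gene PGK replicate 1 was above every CAG library as well.

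Smaller rises in PGK replicate 2 were measured in the last 4 of the 11. ENSG00000156482 had 101 and 190 CPM in the PGK libraries and 94.6, 84.2 and 90.3 CPM in the CAG libraries. ENSG00000198242 had 259 and 480 CPM against 218, 268 and 216 CPM. Both rose less than 2-fold between the PGK replicates. ENSG00000177600 had 85.3 and 147 CPM against 87.3, 85.8 and 72.1 CPM, and ENSG00000122406 had 359 and 615 CPM against 338, 340 and 330 CPM. ENSG00000122406 lay just inside the limit at 1.71-fold, and ENSG00000149273 lay just outside it at 1.44-fold, with 578 and 831 CPM in the PGK line.

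**Figure D2:**
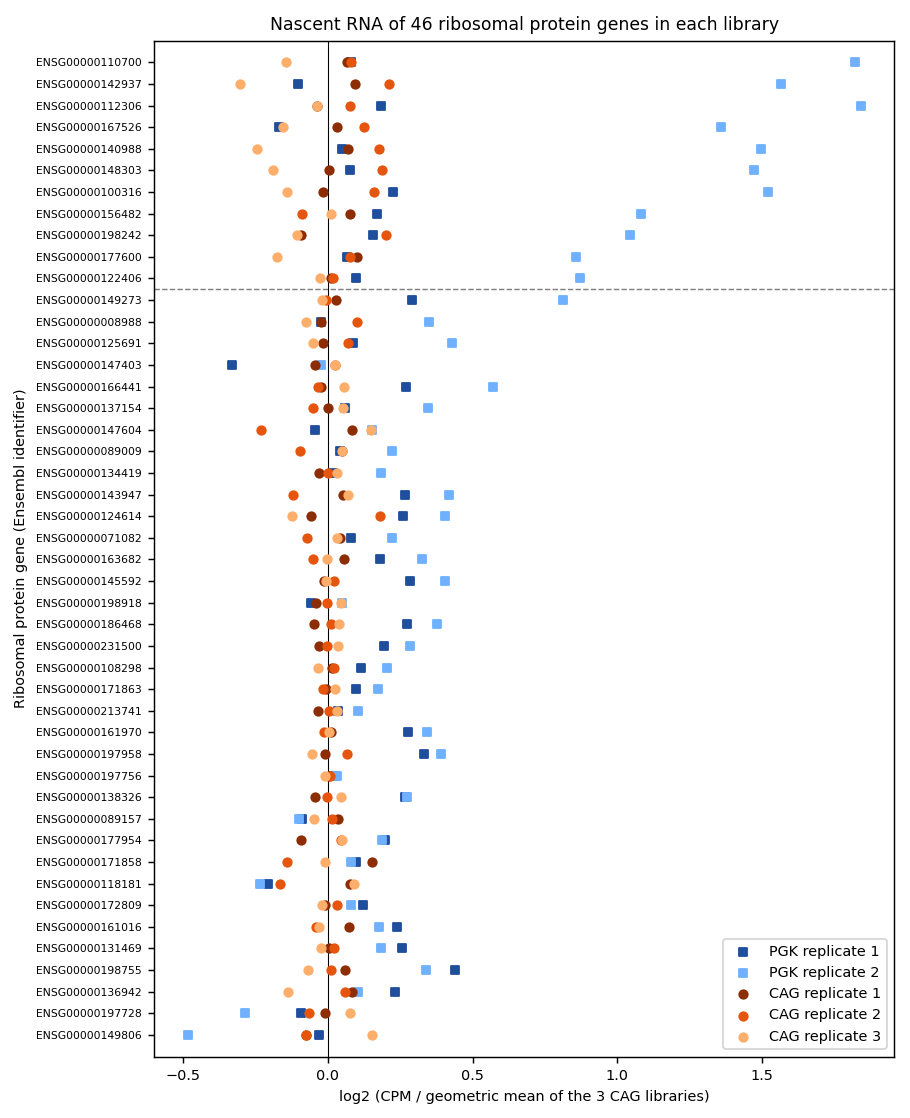
Level of each of the 46 ribosomal protein genes in the 5 libraries, as log2 of CPM over the geometric mean of the 3 CAG libraries (horizontal axis), 1 gene per line, ordered by the difference between the PGK replicates. Squares are PGK and circles CAG libraries. Above the dashed line, the 11 genes at least 1.5 times higher in PGK replicate 2 than in replicate 1 lie 0.86 to 1.84 to the right in that library alone.

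In the CAG line most of the 11 genes differed in the same direction between replicates. The CAG libraries had no part in the 1.5-fold limit that set the 11 apart from the other members. CAG replicate 2 was above CAG replicate 3 in 10 of the 11, with a median log2 difference of 0.28, and CAG replicate 1 was above CAG replicate 3 in all 11, with a median of 0.19. In the other 35 members CAG replicate 2 was above CAG replicate 3 in 13, with a median of -0.03, and CAG replicate 1 was above CAG replicate 3 in 17. Among all genes with at least 50 CPM, CAG replicate 1 was above CAG replicate 3 in 2949 of 6466. CAG replicate 2 was above it in 2802 of them, with a median of -0.02. Of the 11, the gene with CAG replicate 2 below CAG replicate 3 was ENSG00000156482. The log2 difference was only 0.04 in ENSG00000122406 and 0.11 in ENSG00000112306, against an SD of 0.12 over all genes with at least 50 CPM. Of the 37 other genes in the table that reach 50 CPM and passed 1.5-fold between the PGK libraries, 28 were higher in CAG replicate 2 than in CAG replicate 3, with a median log2 difference of 0.10. Across genes, the log2 ratios of PGK replicate 2 to 1 and of CAG replicate 2 to 3 had a Pearson r of 0.67 over the 46 members. Over the genes with at least 50 CPM it was -0.21. Levels of most of the 11 thus differed between replicates of either line, in some by little in the CAG line. No test was made, because the 11 were picked by their values.

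**Figure D3:**
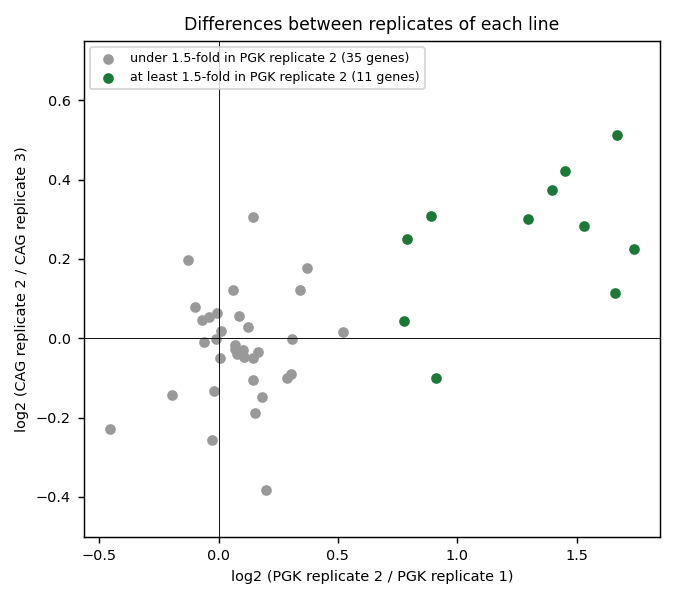
For each of the 46 ribosomal protein genes, the log2 ratio of PGK replicate 2 to replicate 1 (horizontal) against the log2 ratio of CAG replicate 2 to replicate 3 (vertical). Green points are the 11 genes at least 1.5-fold higher in PGK replicate 2, and 10 of them lie above 0 on the vertical axis, against 13 of the 35 grey points.

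In sum over the members, 0.988% and 1.42% of all counts fell in the 46 genes in PGK replicates 1 and 2, and 0.913%, 0.933% and 0.882% in CAG replicates 1, 2 and 3. The 11 genes took 0.282% of PGK replicate 1 and 0.673% of PGK replicate 2, and 0.270%, 0.293% and 0.239% of CAG replicates 1, 2 and 3. The other 35 took 0.706% and 0.745% of the PGK libraries, against 0.643%, 0.640% and 0.642% of the CAG libraries. The share of the 11 in PGK replicate 1 thus fell inside the CAG range, whereas the share of the 35 was above the CAG range in both PGK libraries. For the 35 the PGK line had a mean share of 0.726% ± 0.0278 (SD, n = 2), and the CAG line one of 0.642% ± 0.00134 (SD, n = 3).

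By point estimate, nascent transcription of most members was somewhat lower in the CAG line. That fall was smaller without PGK replicate 2, with a median log2 fold change of -0.09. edgeR's quasi-likelihood test, fitted to all 13400 genes that passed its filter on low counts, called 26 of the 46 members lower and 1 higher in the CAG line at an adjusted p under 0.05, and all 46 members passed that filter. Among all tested genes 43.4% were called, 20.7% lower and 22.7% higher, so the members were called lower in a larger share (56.5%) and higher in a smaller one (2.17%). Members were counted more deeply than most tested genes, with a median of 183 against 47.5 CPM, which makes calls easier. Of the 6466 genes with at least 50 CPM, 1741 were called lower and 1379 higher. Their median log2 fold change was -0.24 (the CAG level fell by 15.4%), against -0.00 over all tested genes and -0.06 over the 6466 genes with at least 50 CPM. The point estimate was below 0 in 40 members. Because the list was drawn up with this comparison in view, these counts describe it and are no test of it.

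Calls and separate libraries did not pick the same members. All 3 CAG libraries lay below both PGK libraries in 29 members, where 30.4% of all tested genes did so. They lay above both in 3 members, against 30.9% of tested genes. Of the 6466 genes with at least 50 CPM, the CAG libraries lay below both PGK libraries in 2474 and above both in 1703. Of the 26 members called lower, 6 (23.1%) had overlapping lines, against 2.31% of all genes called lower, and all 6 belong to the 11 with a high PGK replicate 2. Picking the 11 by the gap between the PGK libraries makes such overlap more likely among them. Without PGK replicate 2, where the lone PGK library was assumed to vary as the CAG libraries do, edgeR called 15 members lower (18.6% of tested genes) and 2 higher (21.4%), and the members' median was -0.09.

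The 11 genes were picked for a high PGK replicate 2, so a smaller fall without that library was largely fixed by the choice. All 11 were called lower, by 1.39-fold to 2.33-fold, and the median log2 fold change was -0.92. For ENSG00000112306 the PGK mean was 421 ± 309 CPM (SD, n = 2) and the CAG mean 178 ± 8.11 CPM (SD, n = 3), a log2 fold change of -1.22 with a standard error of 0.22 (edgeR adjusted p = 6.62e-05). Its PGK spread was larger than the difference between the line means. Without PGK replicate 2 the log2 fold change was -0.18 (edgeR adjusted p = 0.0417), and the median over the 11 was -0.08, with 2 called. For ENSG00000142937 and ENSG00000167526 the direction turned, from -0.93 to 0.12 and from -0.77 to 0.17 on the log2 scale, and neither of the turned values passed the test (edgeR adjusted p = 0.246 and 0.0547).

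Other tests disagreed on the 11. limma-trend called all 11 lower (adjusted p from 0.00196 to 0.0460), as did edgeR with the replicate number as a block. DESeq2 and edgeR with robust estimation called 0 of them at an adjusted p under 0.05. The 11 were picked by a wide gap between the PGK libraries, so this outcome was in part fixed by the choice. In the block fit CAG replicate 3 had no PGK partner, so it did not inform the difference between lines. No label says that a replicate number marks a shared batch. At an unadjusted p under 0.05, DESeq2 had 3 of the 11 lower and robust edgeR 0. Of all members, DESeq2 called 11 members lower (13.8% of tested genes) and edgeR with robust estimation called 15 (21.2%), and in both all of these were among the other 35. For ENSG00000110700, with a log2 fold change of -1.16, the adjusted p was 0.000221 in edgeR's default fit, 0.136 in DESeq2 and 0.251 in the robust fit. For ENSG00000100316, whose estimate fell by 50.1%, the values were 6.24e-05, 0.0870 and 0.198. Whether the 11 differ between the lines is therefore not settled by these libraries.

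**Figure D4:**
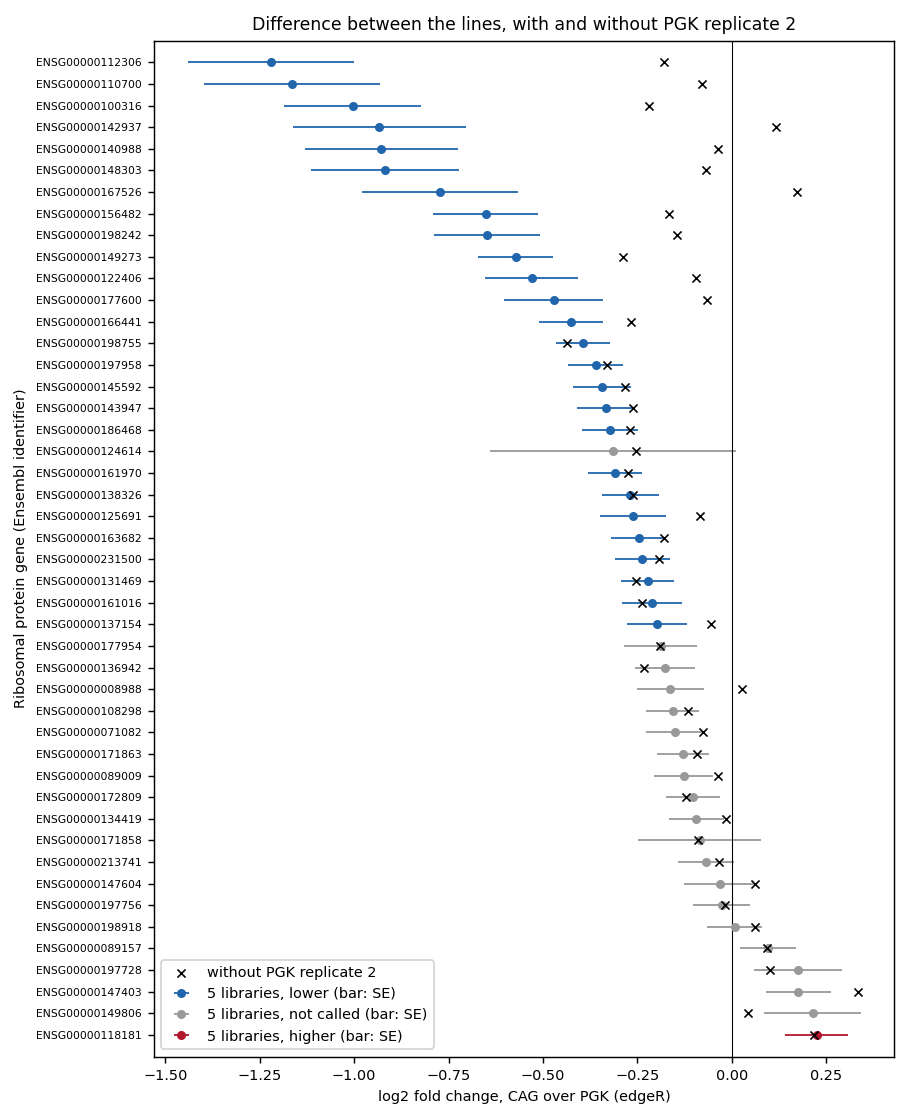
log2 fold change of CAG over PGK for each of the 46 ribosomal protein genes, with edgeR's standard error as a bar (blue called lower, red called higher, grey not called) and the value without PGK replicate 2 as a cross. Crosses and points lie far apart in the genes at the top, where 2 crosses are above 0, and close together in most of the others.

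In the other 35 genes the falls were small. edgeR called 15 of them lower, by 1.15-fold to 1.49-fold, and 1 higher, and the lines did not overlap in any of the 15, as was so for 97.7% of all genes called lower. The median log2 fold change of the 35 was -0.18 (the CAG level fell by 11.5%), and -0.11 without PGK replicate 2. The robust fit called the same 15, DESeq2 called 11 of them, and 12 of them remained without PGK replicate 2. Fewer remained with the replicate block (9) and without CAG replicate 1 or CAG replicate 3 (11 in either case). Since the 35 were separated after the values were seen, they get no test as a set.

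8 members were called lower by edgeR and under each of 13 other settings (scalings, filters, DESeq2, limma-trend, the robust fit, the replicate block and each library left out), and they were picked out after these values were seen. Of all tested genes, 11.3% were called lower in the same 14 fits. The members, 46 in all, are not like the tested genes in depth: 91.1% of tested genes had a lower mean CPM than the median member. Against a log2 change of at least 0.5 (glmTreat), 0 of the 8 were called. ENSG00000198755 stood at 180 and 168 CPM in the PGK libraries and at 139, 134 and 127 CPM in the CAG libraries, a log2 fold change of -0.39 with a standard error of 0.07 (edgeR adjusted p = 6.70e-05). Its lines were well apart, but the genes in the 25 tested rows on either side had a median of -0.39 as well. ENSG00000197958 had 199 and 208 CPM against 157, 166 and 152 CPM, and its change of -0.36 on the log2 scale (edgeR adjusted p = 0.000234) stood beside a median of -0.08 in neighbouring rows.

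ENSG00000145592 had 376 and 410 CPM in the PGK libraries and 306, 314 and 308 CPM in the CAG libraries, a log2 fold change of -0.34. ENSG00000143947 had 117 and 130 CPM against 101, 89.8 and 102 CPM (-0.33), and ENSG00000186468 had 214 and 229 CPM against 171, 178 and 182 CPM (-0.32). In these 3 genes the lines were apart by more than the spread inside either line. ENSG00000161970 had 208 and 218 CPM in the PGK libraries against 173, 170 and 173 CPM in the CAG libraries, a log2 fold change of -0.31. The edgeR adjusted p of these 4 genes lay between 0.000663 and 0.00103.

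2 of the 8 had a wider spread in the PGK line. ENSG00000166441 had 454 and 559 CPM in PGK replicates 1 and 2 and 370, 367 and 391 CPM in the CAG replicates, and its log2 fold change of -0.43 became -0.27 without PGK replicate 2. ENSG00000149273 had 578 and 831 CPM against 482, 471 and 466 CPM, and its -0.57 became -0.29. Both were still below the PGK line without that library (edgeR adjusted p = 0.000239 and 2.11e-05).

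The last 7 members called lower had log2 fold changes between -0.27 and -0.20, all with lines that did not overlap. ENSG00000138326 had 510.3 and 513 CPM in the PGK libraries and 412, 424 and 439 CPM in the CAG libraries, and its log2 fold change of -0.27 was -0.26 without PGK replicate 2. In ENSG00000125691, at 269.5 and 342 CPM against 251, 267 and 245 CPM, -0.26 became -0.08. In ENSG00000137154, at 158 and 193 CPM against 152, 147 and 157 CPM, -0.20 became -0.05. Both of the latter lost the call without that library (edgeR adjusted p = 0.376 and 0.603), and in both PGK replicate 1 lay close above the CAG libraries.

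The only member called higher was ENSG00000118181, at 84.6 and 83.0 CPM in the PGK libraries and 103, 87.0 and 104 CPM in the CAG libraries. The log2 fold change of this gene was 0.23 with a standard error of 0.08 (edgeR adjusted p = 0.0306). The CAG libraries were above the PGK libraries without overlap, with CAG replicate 2 close to them. The call was absent in DESeq2 (adjusted p = 0.141), with the replicate block and without CAG replicate 1 or CAG replicate 3. Without PGK replicate 2, ENSG00000147403 was called higher as well: it stood at 248 and 306 CPM in the PGK line and at 302, 317 and 317 CPM in the CAG line, and the log2 fold change rose from 0.18 to 0.34.

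19 members were not called, and their log2 fold changes ran from -0.32 to 0.21. The 4 nearest to 0 had line means close to each other. ENSG00000198918 had 158 and 170 CPM in the PGK libraries and 159, 164 and 169 CPM in the CAG libraries (0.01, standard error 0.07). ENSG00000197756 had 473 and 477 CPM against 467, 468 and 463 CPM (-0.03), the narrowest spread of these. ENSG00000147604 had 76.1 and 87.2 CPM against 83.2, 66.8 and 87.1 CPM (-0.03), with CAG replicate 2 well below the other libraries, and ENSG00000213741 had 223 and 234 CPM against 212, 218 and 222 CPM (-0.07). PGK replicate 2 was below PGK replicate 1 in 11 members, 7 of them uncalled. The lowest ratio was in ENSG00000149806, singled out after its values were seen, with 38.8 CPM in PGK replicate 1, 28.3 CPM in PGK replicate 2 and 37.6, 37.6 and 44.1 CPM in the CAG replicates. A test that misses the threshold does not show that the lines were alike for these genes.

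Depth limited the members with few counts. ENSG00000124614 had 20 and 14 counts in PGK replicates 1 and 2, and 14, 17 and 16 counts in the CAG replicates (3.28 CPM on average), so its log2 fold change of -0.32 carried a standard error of 0.33. ENSG00000171858 had 96 and 60 counts in PGK replicates 1 and 2, and 87, 73 and 93 counts in the CAG replicates, with a log2 fold change of -0.09 and a standard error of 0.16. In both genes the counting error was of the size of the change or larger. ENSG00000197728 had 34.9 and 30.6 CPM against 37.0, 35.6 and 39.3 CPM, with a log2 fold change of 0.18 and a standard error of 0.12. At the other end of the range, ENSG00000071082 had 484 and 534 CPM against 472, 435 and 468 CPM, a log2 fold change of -0.15 with a standard error of 0.08 (edgeR adjusted p = 0.128).

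In a few members the neighbouring rows of the table were shifted as well. The genes in the 25 tested rows on either side of each member were taken, other members left out. Their median log2 fold change ran from -0.39 to 0.34 over the 46 members. Its median was -0.05, against -0.04 over all tested genes. In 5 members it exceeded 0.2 in size, against 30.8% of all tested genes, and the list was meant to avoid shifted blocks. Relative to these neighbours the members' median was -0.15, and 40 of 46 lay below them, where 50.4% of all tested genes lay below theirs. For ENSG00000161016 the value was -0.21 where its neighbours stood at -0.27. For ENSG00000089157, at 211 and 210 CPM in the PGK line and 230, 227 and 217 CPM in the CAG line, it was 0.10 where the neighbours stood at 0.34. In the 11 genes with a high PGK replicate 2 the neighbours lay between -0.09 and 0.02. No source used here states how the rows are ordered, so neighbouring rows need not be neighbouring genes.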

How the data were processed

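The authors deposited raw counts per Ensembl gene identifier for the 5 libraries. The tools listed in the submitters' processing notes are featureCounts 2.0.3, UMI-tools, HISAT2 2.2.1, Bowtie2 2.5.1, cutadapt and fastp 0.23.2, with the build hg19. Their roles, the annotation and the strand setting: not given in the sources used here. The 18 rows without an identifier were left out. Genes were filtered with filterByExpr (minimum count 10, minimum total 15), scaled by TMM and tested for CAG over PGK with edgeR 4.0.16 (glmQLFTest, R 4.3.3) on 13400 genes, with Benjamini-Hochberg adjustment over all of them and a threshold of 0.05. The standard error was taken as the absolute log2 fold change divided by the root of the F statistic. Alternatives used DESeq2 1.42.0, limma 3.58.1 (log2 CPM, prior count 2) and other settings. The test was tried on simulated counts.

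The members and gene lists were chosen with earlier results of these data known. Values in every library were given for up to 8 called members per direction with the largest change, the 4 uncalled members nearest to 0 and the 3 with the highest and lowest mean CPM. All other members with printed values were added after their values were seen. Lists that need gene names were not run on the counts. Sequences are RefSeq's (GRCh38.p14), a different build from the authors', and were matched by symbol only.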

Additional observations from a re-analysis of the deposited data

Results flagged for a closer look

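The 18 rows without a gene identifier, which no comparison used, held 95 counts over the 5 libraries, from 13 in PGK replicate 2 to 25 in PGK replicate 1.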

How the results depend on the processing

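The robust fit, the removal of the 11 genes and the values relative to neighbouring rows were added after the values had been seen. By the main test 27 of 46 members were called (26 lower, 1 higher). DESeq2 called 11 (11 lower, 0 higher), the robust edgeR fit 16 (15 lower) and glmTreat against 0.5 called 3 (3 lower, 0 higher), which is a stricter hypothesis by construction. At an unadjusted p under 0.05 these 3 fits had 17, 18 and 8 members lower. Upper-quartile factors gave 2 higher calls. With the replicate number as a block, 20 members were called, 20 lower and 0 higher. In the check of pairing, deviations from the line means had r = 0.0384 for number 1 and -0.0675 for number 2, and the block was kept as an alternative only. Leaving out 1 library gave 17 to 31 calls, 15 to 29 lower and 0 to 2 higher, with a median log2 fold change of -0.34 (without PGK replicate 1) to -0.0936 (without PGK replicate 2). The cause of these changes was not tested. Across the other fits the median stayed between -0.25 and -0.22. It was -0.18 with the 11 genes removed, and -0.15 when taken relative to neighbouring rows.

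Directions turned in 4 named genes. With 1 library left out, values ranged on the log2 scale from -1.56 to 0.12 for ENSG00000142937, from -1.37 to 0.17 for ENSG00000167526, from -0.15 to 0.0797 for ENSG00000147604 and from -0.0561 to 0.0608 for ENSG00000198918, which stood at -0.0172 with the block. Over all settings except glmTreat, 391 values of the named genes kept direction and side of the threshold, 53 lost the call, 4 gained one and 7 turned. The gains were in ENSG00000147403 (0.20 with upper-quartile factors, 0.34 without PGK replicate 2) and, without PGK replicate 1, in ENSG00000071082 (-0.23) and ENSG00000149806 (0.49). The pyrimidine tract was found in 68.3% of ribosomal protein promoters when it had to open at the annotated start itself and in 88.9% within 10 bases. In 60 bases around the start in place of 300, CCGGAAG was in 7.94%, TCTCGCGAG in 1.59% and GGGCGG in 12.7%. CCGGAAGT was in 14.3% of ribosomal protein promoters and 6.19% of all over 300 bases, and in 0% and 2.96% over 60. Why the shares differ between the windows was not tested. Depth limits ENSG00000124614, with 14 to 20 counts per library.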
